A study of Mus musculus with 4 samples.

Results

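Cytosolic ribosomal protein genes encode the proteins of the small and large subunits of the ribosome, the particle that makes protein in the cytosol. Members were taken by symbol from the genes present in both count matrices: names that start with Rps, Rpl, Rplp or Rpsa, without pseudogene suffixes and without the Rps6k kinases. The rule gave 94 of 55253 genes: 39 with a small-subunit symbol, 52 with a large-subunit symbol and the 3 stalk proteins Rplp0, Rplp1 and Rplp2. It also took in a few genes that are not standard ribosomal proteins, among them the paralogs Rps27l, Rpl36al, Rpl7l1 and Rpl22l1, which resemble a standard member, and Rps19bp1, whose product binds Rps19. No measured value entered the choice.

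The cells were CD45+ cells (CD45 marks blood-derived immune cells) from the mouse mammary gland, sequenced as 3′ ends with 10x Genomics chemistry in 2 pooled libraries, labelled DR_MG_2021 and DR_MG_2022 and called the first and the second pool here. Each pool was divided into samples by hash tags, antibodies that carry a DNA barcode and mark the cells of one source. The sheet of the first pool names Nulliparous (animals that have not been pregnant), Gestation, Lactation and a Germ-free sample on tag HT2. That of the second pool gives Gestation, Lactation, Involution (the return of the gland to rest after nursing), Regression, Balb/c, GF and again Germ-free on HT2. The second sheet also lists Nulliparous, whose tag had 1 count and gave no cells. The title of the first pool lists Involution and no germ-free sample, so its HT2 sample may be an Involution sample. The samples on this tag are called Germ-free (HT2), as in the sheets, and GF is the second pool's sample on HT12. Balb/c is an inbred mouse strain. No source used here gives the strain of the other samples, the reproductive stage of the Balb/c and germ-free animals, their ages or how many animals share a tag. Each name therefore stands for 1 hash-defined sample per library, and a spread between samples contains the difference between names.

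Ribosomal protein mRNAs are among the most abundant in any cell. Most of them begin with a cytosine followed by a stretch of pyrimidines, the 5′ terminal oligopyrimidine or TOP motif, through which mTORC1 signalling and the binding protein LARP1 control their translation and stability. Resting naive lymphocytes hold little RNA besides housekeeping and ribosomal protein mRNA, whereas plasma cells devote most of theirs to immunoglobulin. Several members also act outside the ribosome: Rpl5 restrains Mdm2 as part of the 5S ribonucleoprotein, and Rps27l is a known p53 target.

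The start site windows below show the pyrimidine run in 5 of the most abundant members and in the paralogs Rps27l and Rpl36al, on which the plasma cell results turn. The window of Rps27rt, which has no run, is given beside them. Each window is 30 bases of the sense strand, 5′ to 3′, from the RefSeq promoter table (GRCm38.p6). Capitals mark the run of a C followed by at least 7 further pyrimidines. Where a gene had several entries in that table, one with a run was taken.
Rpl37a: gcgtCCCTTCCTCTTCggacttgggcttgg
Rpl41: cgccattaaatagcagtaggCCTCCCTCTC
Rps24: gggtCCTTCCTTgcgcgttgatatgattgg
Rps27: ttcgCTCCTTTCCggcggtgacgacctccc
Rpl39: ccatCCCCCCCTaagctccgcctctagcga
Rps27l: tccaCTCCTCCCCgccgcctctatcccgga
Rpl36al: tctgttcgtCCCTTTCCTgttcggcgcgtg
Rps27rt: ccttgctttccggcggtgacgacctcccta

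These windows lie at chr1:72711280-72711309 on the + strand for Rpl37a, chr10:128549119-128549148 (-) for Rpl41, chr14:24490672-24490701 (+) for Rps24, chr3:90213625-90213654 (-) for Rps27 and chrX:37085217-37085246 (-) for Rpl39. Those of the paralogs lie at chr9:66946070-66946099 (+) for Rps27l, chr12:69184018-69184047 (-) for Rpl36al and chr9:114982715-114982744 (-) for Rps27rt. The start site used for Rps27l lies inside the gene, whose annotated span begins at chr9:66944624. The run began 2 bases before the annotated start site in Rps24 and Rps27, 20 bases before it in Rpl39 and 12 before it in Rps27l, so that in the latter pair it ended upstream of the start site. It began 24 bases after the start site in Rpl37a, 40 after it in Rpl41 and 29 after it in Rpl36al. In the stretch from 20 bases before to 50 bases after the start site, such a run was present on the sense strand in 51 of the 69 members with an entry (73.9%), and in 22.7% of all 27025 genes with one. For each motif, a gene with several entries was counted if any of them held it. CCGGAAG, the core of ETS family sites, was present on either strand of the 300-base entries in 37.7% of members and in 9.93% of all genes. TATAAA was present in 11.6% of members and 15.7% of all genes. The motifs are matches of letters only. The entry of Rps27rt holds no such run, and it shares 38 consecutive bases with that of Rps27, against 10 between Rps27 and Rps27l. The 3′ ends that the reads come from were not compared, and since reads of Rps27 and Rps27rt may have been divided between them the values of both are uncertain.

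After filtering, 15290 singly tagged cells of the first pool and 14610 of the second pool were analysed, in samples of 783 to 5633 cells and 2912469 to 11429498 UMIs (unique molecular identifiers, 1 per captured RNA molecule). The libraries shared 139 cell barcodes. One gene entry, CT010467.1, held 19.6% of all UMIs in the first pool and 5.86% in the second pool, and it was left out of the denominators of all shares and levels but kept in the counts of the edgeR tests. Lineages were gated on raw counts of Cd3e, Cd4, Cd8b1, Ncr1 (NK cells), Ms4a1 (B cells), Jchain (plasma cells) and C1qa (macrophages), and 53.6% and 37.0% of cells fell in no gate. Of markers not used in the gates, the 5 T cell genes were detected in at least 10% of the cells of each T cell gate, as were all 7 NK genes in NK cells. The "other T" gate (Cd3e without Cd4 or Cd8b1) also held NK markers, at 138 UMIs per 10000 in the first pool against 194 in NK cells, and 40.7 against 98.4 in the second pool. In the CD4 T gate of the first pool, of only 168 cells, 2 of the 5 CD4 T genes reached 10% of cells.

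Members took 17.3% of the analysed UMIs in the first pool and 19.4% in the second pool, and 93 of the 94 were detected in each library. Rpl10l, a paralog known from testis, had no UMI. The family was not evenly filled. Rps29, a small zinc-binding protein of the small subunit, led with 5.30% of member UMIs in the first pool and 5.27% in the second pool. Rpl37a followed with 4.02% and 4.52%, Rpl41, the smallest protein of the ribosome, with 3.67% and 3.47%, and Rps24 with 3.44% and 3.51%. By the mean of both percentages, then came Rps27 (2.68% and 3.64%), Rpl39 (2.61% and 2.55%), Rps21 (2.75% and 1.98%), Rpl23 (2.32% and 2.28%), Rplp1 (2.34% and 2.10%) and Rpl32 (2.37% and 1.65%). Together these 10 held 31.5% of member UMIs in the first pool and 31.0% in the second pool. The order differed within the second pool, where Rps27 stood above Rps24 and Rpl41, and Rps28 (2.22%), Rpl37 (2.07%) and Rps20 (1.92%) were among the members above Rpl32. At the other end, 16 members in the first pool and 14 in the second pool stood below 0.1% each, most of them paralogs such as Rpl39l, Rpl3l, Rps4l and Rpl7l1. One UMI stands for one captured 3′ end, so these shares do not scale with transcript length, but they do depend on how well each 3′ end is captured and assigned.

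**Figure D1:**
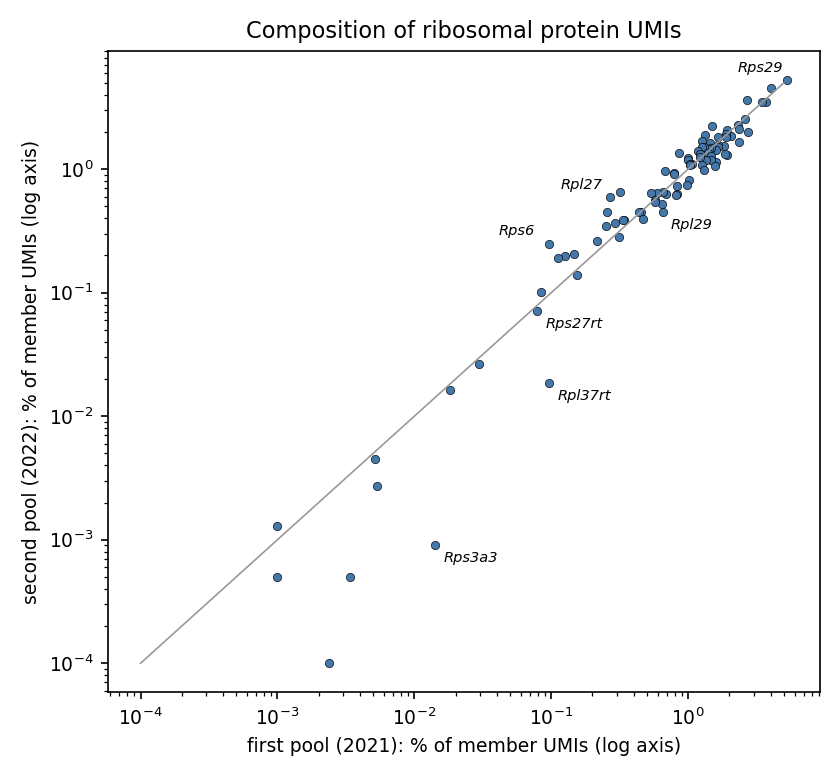
Percent of member UMIs held by each member in the first pool (x axis, log) and the second pool (y axis, log), 1 point per member detected in both, with the line of equality. Most members lie near the line, while Rps6 and Rpl27 lie above it (2.60-fold and 2.20-fold) and Rpl37rt below it (5.27-fold).

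The order was similar in both libraries, with a few members apart. Of the 83 members with at least 1000 UMIs in each library, 3 held at least 2-fold more of the member UMIs in the second pool: Rps6 (2.60-fold), Rpl27 (2.20-fold) and Rps10 (2.07-fold). Rps6 is the small-subunit protein phosphorylated by S6 kinase. Each of the 3 was higher in the second pool in 6 of 6 lineages. Rpl37rt, a retrocopy of Rpl37, was the 1 member at least 2-fold lower, with 0.0969% in the first pool and 0.0184% in the second pool, and lower in the second pool in all 6 lineages. The library is confounded with year, with sequencing depth and possibly with software version, since the matrix header of the first pool names Cell Ranger 4 and that of the second names none, so values of such members are compared only within a library.

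The small and large subunits kept nearly fixed proportions. Small-subunit members held 50.5% ± 0.137 (SD, n = 4) of member UMIs in CD4 T cells in the first pool and 49.1% ± 0.863 (n = 7) in the second pool. Plasma cells had the lowest small-subunit proportions, 47.0% ± 0.850 (n = 4) and 45.9% ± 1.02 (n = 2). The 3 stalk proteins, which bring elongation factors to the ribosome, differed more between lineages: they held 5.21% ± 0.0979 in CD4 T cells and 3.96% ± 0.0855 in B cells in the first pool (n = 4 each), and 4.40% ± 0.243 and 3.54% ± 0.0690 in the second pool (n = 7 each).

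As a share of a cell's UMIs, members were highest in T and B cells, lower in NK cells and macrophages, and lowest in plasma cells. Per sample, the value is the median over cells. CD8 T cells had 23.7% ± 4.31 (SD, n = 4) in the first pool and 26.7% ± 5.29 (n = 7) in the second pool, and CD4 T cells 22.8% ± 3.46 and 21.7% ± 2.42. Other T cells had 19.8% ± 3.49 and 20.4% ± 2.56, and B cells 19.3% ± 0.697 and 21.5% ± 1.58. NK cells had 15.7% ± 1.82 and 17.1% ± 1.65, macrophages 14.0% ± 1.99 and 12.5% ± 2.36, and plasma cells 6.89% ± 0.620 (n = 4) and 6.35% ± 0.406 (n = 2). Neighbours in this order overlapped across samples in both libraries, except that every B cell value lay above every NK value and every macrophage value above every plasma value of its library. Barcodes of 10 to 100 UMIs in the matrix of the first pool, which hold mostly free RNA, had 9.14% member UMIs.

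**Figure D2:**
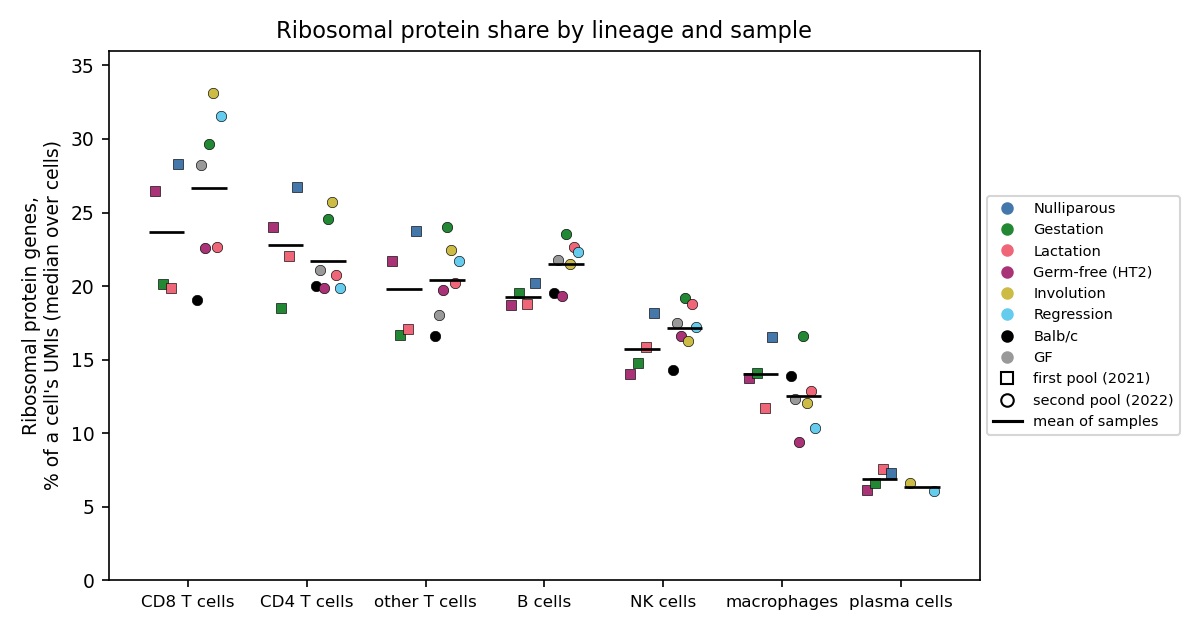
Median percent of a cell's UMIs in ribosomal protein genes (y axis) for each sample in 7 gated lineages (x axis); squares are samples of the first pool, circles those of the second, colours the tag names and bars the mean of the samples. T and B cells stand highest, plasma cells lowest at 6.06% to 7.53%, and CD8 T cells spread most, from 19.0% to 33.1%.

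Within samples, NK cells were below CD4 T cells by 7.11 percentage points in the first pool (mean difference -7.11, SD 2.75, n = 4) and the difference was -4.57 in the second pool (SD 2.54, n = 7), with the NK value lower in all 11 samples. Macrophages were below CD4 T cells in all 11 samples, with mean differences of -8.80 (SD 2.92) and -9.21 (SD 2.40) points. CD8 minus CD4 T cells gave 0.87 (SD 2.05; 3 of 4 samples higher) and 4.99 points (SD 4.19; 6 of 7 higher), and B minus CD4 T cells -3.52 (SD 3.32) and -0.17 points (SD 2.20), values below or near their spread. Plasma cells were below B cells by far the most, with -12.4 (SD 0.799, n = 4) and -15.6 points (SD 0.969, n = 2). With immunoglobulin genes taken out of the denominator, an alternative chosen after seeing the data, the plasma difference was -1.98 and -4.01 points.

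Depth moved with the share inside some lineages. With the cells of a lineage divided into 4 equal groups by depth, NK cells of the shallowest group of the first pool (median 746 UMIs) had 12.3% and those of the deepest (2367 UMIs) 18.4%, and in the second pool the groups ran from 12.3% at 1827 UMIs to 19.3% at 4653 UMIs. Macrophages of the second pool ran from 7.51% at 1408 UMIs to 14.2% at 7967 UMIs, while those of the first pool had 15.8% in the shallowest and 14.1% in the deepest group. When each cell was thinned to 1000 UMIs before gating, at least 20 CD4 T cells were left only in Nulliparous in the first pool. In the second pool they were left in Balb/c, Gestation, Involution and Lactation. NK minus CD4 T was then -7.80 points in the first pool and -5.79 in the second, and macrophage minus CD4 T -10.9 and -9.32 points. CD8 minus CD4 T was 0.40 and 3.18 points. These values cover fewer samples than the means above, so whether the differences change with depth was not tested.

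To see which members carried these differences, counts were summed per sample and lineage and each gene was tested with edgeR's quasi-likelihood test, with sample as a block and TMM scaling, which sets the bulk of genes to no change. A member was called at a Benjamini-Hochberg adjusted p under 0.05 over all genes tested. The spread behind these tests is that between hash-defined samples, which differ in name as well as in animals.

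CD8 T cells had more of most members than CD4 T cells. Of 84 members tested, 56 were higher and 0 lower, against 9.23% of all genes called, 5.09% higher and 4.14% lower. The median member log2 fold change was 0.27, beside 0.01 over all genes. Both subunits took part: 23 of 34 small-subunit, 30 of 47 large-subunit and 3 of 3 stalk members were higher. Rps18, at the head of the small subunit, had 16.8, 39.8 and 45.5 UMIs per 10000 (lowest, median and highest of 7 samples) in CD8 T cells of the second pool, and 14.3, 28.5 and 35.4 in CD4 T cells. The ranges overlapped across samples, but within a sample the CD8 value was higher in 11 of 11 (log2 fold change 0.46, SE 0.06, edgeR adjusted p = 5.2e-06). Rpl36a (0.42, SE 0.08), Rpl23a, which sits beside the exit tunnel (0.41, SE 0.09), and Rpl32 (0.41, SE 0.07) followed. The first pool alone called 0 members and the second pool alone 57, against 1.42% and 8.49% of all genes. At an unadjusted p under 0.05 (edgeR) the first pool had 6 of 82 members, against 207 of 2178 genes. DESeq2 on both called 50, against 7.82%.

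NK cells had less of most members than CD4 T cells. Of 85 tested, 56 were lower and 2 higher, against 23.3% of all genes called (12.3% higher and 11.0% lower), and the median member log2 fold change was -0.30 beside 0.01 over all genes. Rps19, a small-subunit protein needed to mature the subunit and mutated in Diamond-Blackfan anaemia, fell most. It had 16.8, 21.0 and 23.7 UMIs per 10000 (lowest, median, highest) in NK cells of the second pool and 27.9, 33.6 and 47.4 in CD4 T cells, and 15.0, 16.4 and 20.3 against 28.9, 32.9 and 39.3 in the first pool. The groups did not overlap in either library, and the NK value was 1.79-fold lower (log2 -0.84, SE 0.08, edgeR adjusted p = 2.67e-09). Rpl12, at the base of the stalk, was 1.68-fold lower (log2 -0.75, SE 0.09) and Rpl5 1.53-fold lower (-0.61, SE 0.09), both lower in 11 of 11 samples and without overlap. Rpl13a, a large-subunit protein with a role in translational silencing, was 1.49-fold lower (-0.57, SE 0.11). The 2 members called higher were the paralog Rps27l (0.43, SE 0.15, higher in 8 of 11 samples) and Rpl10, which enters the large subunit last (0.23, SE 0.08, 9 of 11).

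Macrophages had less of most members and more of a few. Of 85 members, 49 were lower and 3 higher than in CD4 T cells, against 46.7% of all genes called (28.1% higher and 18.6% lower), and the median was -0.31 beside 0.05 over all genes. Rpl12 was again low, at 5.28, 6.38 and 8.28 UMIs per 10000 (lowest, median, highest) in macrophages of the second pool and 14.5, 16.0 and 20.9 in CD4 T cells (1.98-fold lower, log2 -0.98, SE 0.11, edgeR adjusted p = 1.71e-08). Rps27 was 1.96-fold lower (-0.97, SE 0.10), Rps27rt 1.80-fold lower (-0.85, SE 0.15) and Rpl5 1.78-fold lower (-0.83, SE 0.12), none of them overlapping in either library. Against them, the paralog Rps27l was 2.76-fold higher in macrophages, with 3.39, 3.74 and 5.64 UMIs per 10000 in the second pool and 1.24, 1.45 and 2.88 in CD4 T cells, higher in 11 of 11 samples (log2 1.46, SE 0.16, edgeR adjusted p = 3.75e-09). Rpl7l1, a paralog of Rpl7 found on precursors of the large subunit, was 1.59-fold higher (0.66, SE 0.20) and Rpl10 1.31-fold higher (0.39, SE 0.12). With scaling by library size only, 77 members were lower and 1 higher, against 51.8% of all genes called and 21.8% higher, with the median of all genes at -0.20. The CD8 T, NK, macrophage and B cell comparisons share the CD4 T samples.

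Between B cells and CD4 T cells a smaller share of members than of all genes was called, some higher and others lower. Of 83 members tested, 6 were higher and 10 lower in B cells, against 41.5% of all genes called (21.1% higher and 20.5% lower), and the median was -0.01, as over all genes (-0.01). All 3 stalk proteins were lower: Rplp0 had 13.0, 13.6 and 14.5 UMIs per 10000 (lowest, median, highest of 4) in B cells of the first pool and 17.6, 21.7 and 27.1 in CD4 T cells (1.38-fold lower, log2 -0.47, SE 0.09, edgeR adjusted p = 0.000254), and Rplp1 was 1.34-fold lower (-0.43, SE 0.07). The ranges of both genes overlapped in the second pool. Rpl13a (-0.43, SE 0.12) and Rpl5 (-0.37, SE 0.10) were lower too. Higher in B cells were Rpl7l1 (0.49, SE 0.18), Rps27rt (0.41, SE 0.13), Rps27 (0.30, SE 0.07) and Rps20, a small-subunit protein (0.27, SE 0.08). Scaling by library size only gave 3 higher and 27 lower, against 17.9% and 24.9% of all genes. Leaving CT010467.1 out of the counts, which also raised the number of genes tested from 4899 to 5101, gave 14 higher and 6 lower, against 24.6% and 16.9%. The split between higher and lower members was thus not the same under these settings.

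Relative to other genes, some members were higher and others lower in plasma cells than in B cells, each a smaller share than over all genes. Of 85 tested, 16 were higher and 13 lower after TMM scaling, against 43.5% of all genes called (22.7% higher and 20.8% lower), and the median was 0.01 beside -0.07 over all genes. Rps27l had 0.84, 0.74, 1.67 and 1.48 UMIs per 10000 in B cells of the samples of the first pool Germ-free (HT2), Gestation, Lactation and Nulliparous, and 4.14, 5.13, 4.36 and 3.98 in their plasma cells. In the second pool it had 1.37 and 1.38 in B cells of Involution and Regression, and 3.70 and 3.73 in plasma cells. Every plasma value lay above every B value of its library, and the fitted change was 9.26-fold (log2 3.21, SE 0.19, edgeR adjusted p = 7.79e-10). Rpl36al, the paralog of Rpl36a, had 1.86, 1.65, 2.05 and 1.27 UMIs per 10000 in B cells of the same samples of the first pool and 2.98, 3.37, 3.98 and 2.97 in plasma cells (5.38-fold, log2 2.43, SE 0.14, edgeR adjusted p = 3.95e-10). The standard member Rpl36a did not pass the test (log2 -0.03, SE 0.13).

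In the opposite direction, Rps27 had 62.7, 77.1 and 83.8 UMIs per 10000 (lowest, median, highest) in B cells of the first pool and 12.5, 12.9 and 16.5 in plasma cells (2.02-fold lower after scaling, log2 -1.01, SE 0.10, edgeR adjusted p = 5.34e-07). Rps27rt, whose start site entry shares bases with that of Rps27, was 2.13-fold lower (-1.09, SE 0.19), and the small-subunit proteins Rps12 (-0.61, SE 0.12) and Rps15 (-0.56, SE 0.12) were lower in 6 of 6 samples. Rps27 and its paralog Rps27l, whose start sites are shown above, thus went opposite ways in the same cells. Rpl41 (log2 1.20, SE 0.10) and Rplp0 (0.96, SE 0.12) were higher after TMM scaling, but with library size only they were lower, at -0.26 and -0.50. That scaling called 81 members lower and 2 higher, against 79.4% and 6.47% of all genes, and moved the median of all genes to -1.52 and of members to -1.46, so only changes relative to other genes are described here. The second pool alone, with 2 samples that had plasma cells, called 9 members, against 21.0% of all genes.

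**Figure D3:**
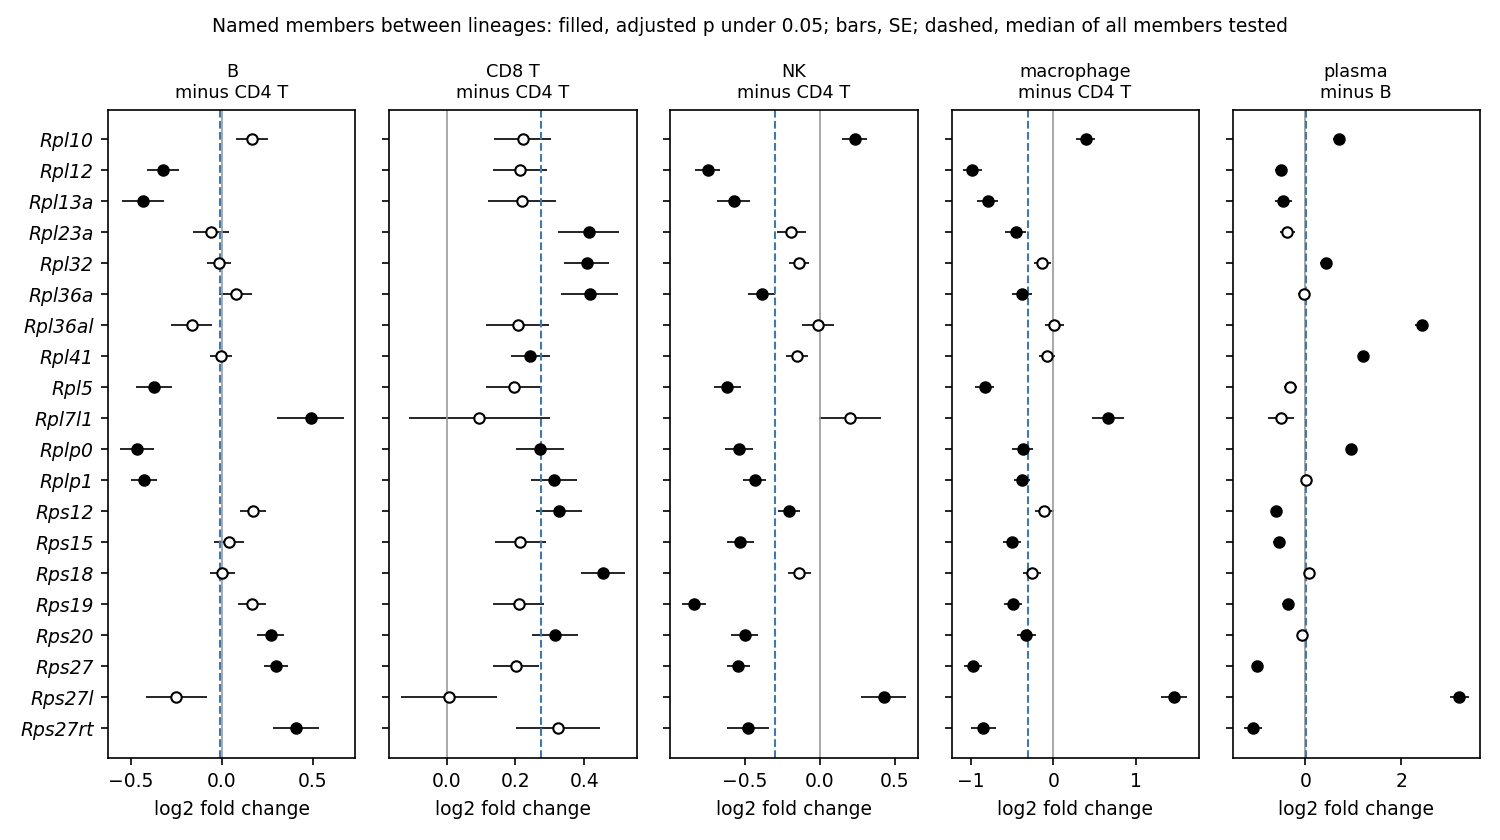
Log2 fold change (x axes) of the 20 members named between lineages (y axis) in each of the 5 comparisons, after TMM scaling; filled points have an adjusted p under 0.05, bars are standard errors and the dashed line is the median of all members tested. Rps27l lies to the right of the other members in plasma cells and macrophages, at 3.21 and 1.46.

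Other genes of the translation machinery were read from 4 lists. The lists were chosen with earlier results known and are described by counts, to be read against the shares of all genes called: 9.23% in the CD8 T comparison, 23.3% in NK cells, 46.7% in macrophages, 41.5% in B cells and 43.5% in plasma cells. Of 18 TOP and ribosome-associated genes outside the family, 6 were higher and 0 lower in CD8 than in CD4 T cells, with a median of 0.22. They included Rack1, a small-subunit scaffold (0.33, SE 0.07), and the elongation factor Eef1b2 (0.39, SE 0.08). In NK cells 8 were lower and 0 higher, with a median of -0.22, among them Tpt1 (-0.49, SE 0.07) and Rack1 (-0.43, SE 0.08), and in macrophages 9 were lower and 0 higher, with a median of -0.27. In plasma cells 2 were higher (Tpt1 and Eif3k) and 1 lower (Fau, which encodes a small-subunit protein as a fusion).

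Of 22 ribosome biogenesis genes, which make, modify and assemble rRNA, 2 of 14 tested were higher in CD8 than in CD4 T cells (Nhp2 and Nop56; median 0.29), 1 of 17 in NK cells (Nhp2) and 1 of 12 in B cells (Pes1), with 0 lower. In macrophages 2 of 22 were higher and 2 lower, and in plasma cells 5 of 17 were lower and 0 higher (Polr1a, Fbl, Dkc1, Nop56 and Ncl). In macrophages that is a smaller share than over all genes, and in plasma cells the share lower is near the 20.8% of all genes. Myc, a driver of ribosome production on the list of 10 regulators, was lower in plasma than in B cells (log2 -3.93, SE 0.44) and higher in B than in CD4 T cells (1.97, SE 0.22). Mxd4, which opposes Myc, was higher in plasma cells (1.77, SE 0.24), and Eif4ebp1, the mTORC1 target that holds back cap binding, was higher in macrophages (2.19, SE 0.23) and plasma cells (1.40, SE 0.26). Of the regulators tested, 2 of 10 were higher and 2 lower in macrophages, and 2 of 9 higher and 1 lower in plasma cells. In NK cells 1 of 8 was higher and 1 lower, in B cells 1 of 7 higher and 1 lower. In CD8 T cells 1 of 8 was higher and 0 lower. Of the mitochondrial ribosome genes, 28 of 63 tested were higher and 0 lower in plasma cells after TMM scaling. Their median was 0.60, and 22.7% of all genes were higher. As a share of UMIs the list was lower in plasma than in B cells in every sample with a plasma value. It held 0.231% to 0.2918% in plasma cells and 0.3263% to 0.3942% in B cells of the first pool. In Regression of the second pool it held 0.2052% against 0.3576%. In macrophages 17 of 71 were higher and 2 lower, a smaller share higher than the 28.1% of all genes. In NK cells 3 of 62 were higher and 0 lower, against 12.3% of all genes higher. In B cells 0 of 44 were higher and 7 lower, against 20.5% of all genes lower. Between CD8 and CD4 T cells 0 of 48 were called.

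Among tag names, CD8 T cells varied most. In the first pool the member share was 28.3% in Nulliparous (341 cells), 26.4% in Germ-free (HT2) (75 cells), 20.1% in Gestation (103 cells) and 19.9% in Lactation (66 cells). In the second pool it was 33.1% in Involution (211 cells), 31.6% in Regression (114 cells), 29.6% in Gestation (480 cells), 28.2% in GF (153 cells), 22.6% in both Germ-free (HT2) (47 cells) and Lactation (83 cells), and 19.0% in Balb/c (98 cells). Gestation was thus among the low samples in the first pool and among the high ones in the second pool. B cells differed little, from 18.7% to 20.2% in the first pool and from 19.3% to 23.6% in the second pool.

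The same samples differed in their T cell states. Itgae and Gzmb encode an epithelial retention integrin and granzyme B, a protease of cytotoxic granules, and cells were divided by a UMI of either, a split chosen after seeing the data. In CD8 T cells of the second pool 60.2% of cells had such a UMI in Balb/c, 48.2% in Lactation, 40.5% in GF, 40.2% in Gestation, 31.9% in Germ-free (HT2), 24.6% in Regression and 23.2% in Involution. In the first pool the values were 63.6% in Lactation, 25.2% in Gestation, 24.9% in Nulliparous and 12.0% in Germ-free (HT2). In macrophages, which were used as the level in another cell type, 3.82% to 7.08% of cells had such a UMI in the first pool and 3.34% to 12.6% in the second pool. At 1000 UMIs per cell the CD8 values of the second pool ran from 8.45% of 71 cells in Involution to 48.8% of 43 cells in Balb/c, with too few cells left in Germ-free (HT2).

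**Figure D4:**
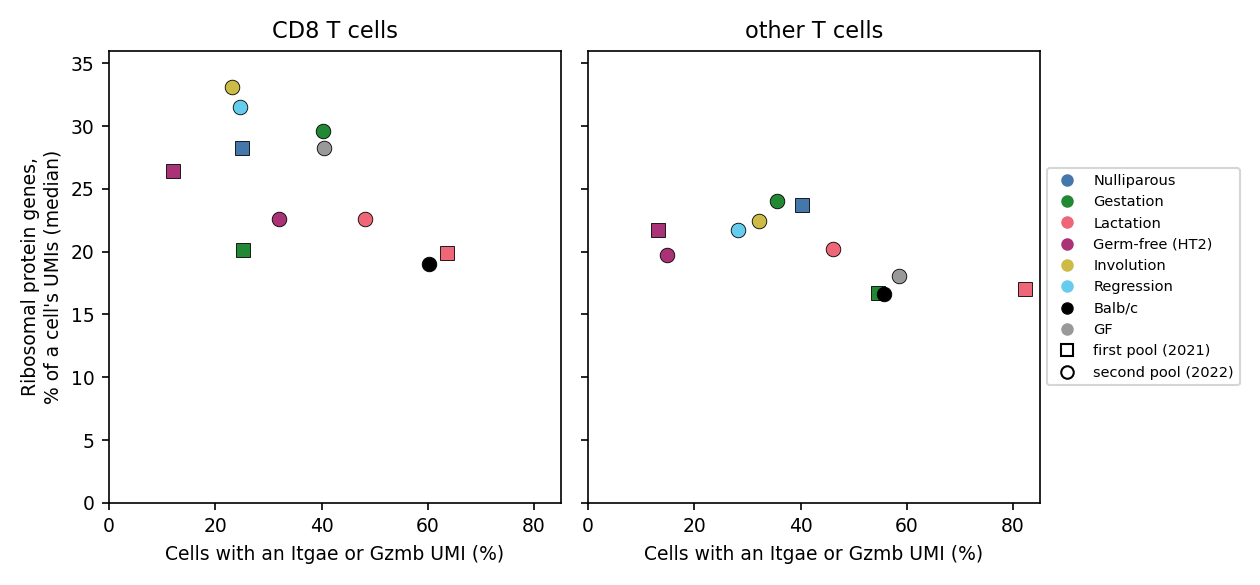
Median percent of a cell's UMIs in ribosomal protein genes (y axes) against the percent of cells with an Itgae or Gzmb UMI (x axes), 1 point per sample, in CD8 T cells (left) and other T cells (right); squares are samples of the first pool (labelled with the earlier year) and circles those of the second. In CD8 T cells the samples at 48.2% or more on the x axis have shares of 19.0% to 22.6%, and those at 12.0% to 40.5% have shares of 20.1% to 33.1%.

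Within single samples, the cells with an Itgae or Gzmb UMI mostly had the lower member share. In CD8 T cells the difference was -3.85 points (SD 1.25) in the first pool, lower in 3 of 3 samples with at least 20 cells on each side, and -4.58 points (SD 3.67) in the second pool, lower in 5 of 6. It was widest in GF, with 22.8% in 62 cells with such a UMI and 32.3% in 91 without, at median depths of 2975 and 3051 UMIs. Lactation of the second pool was the exception, with 23.4% in 40 cells and 22.6% in 43. In other T cells the difference was -3.30 points (SD 0.686) in 4 of 4 samples of the first pool and -3.84 (SD 1.06) in 6 of 6 of the second pool, and at 1000 UMIs per cell it was -4.10 (SD 1.18, 3 of 3) and -3.62 points (SD 1.22, 6 of 6). CD4 T cells with a UMI of Foxp3, the regulator that defines regulatory T cells, could be divided in 1 sample only, Gestation of the second pool, with 23.0% in 21 cells and 24.6% in 224 without.

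Dividing T cells, defined by at least 2 UMIs of 6 cell cycle genes, had lower shares, by an amount that varied. The difference was -9.41 points in CD8 T cells of Nulliparous (42 dividing cells, 19.9% against 29.3%). It was -11.8 points in those of Gestation of the second pool (51 cells, 19.1% against 30.9%) and -10.3 points in CD4 T cells of the latter. In other T cells it was -1.24 points in Lactation of the first pool (63 dividing cells), -4.29 in Nulliparous and -5.69 in Gestation of the second pool. The dividing cells were deeper, with 5970 against 3098 median UMIs in CD8 T cells of Gestation of the second pool. Dividing NK cells differed by only -0.41 points (2 samples of the first pool), and dividing macrophages were higher by 0.49 points (2 samples of the first pool) and 2.80 points (2 samples of the second pool). The part of these states in the differences between tag names was not tested. CD8 T cells of the second pool with neither an Itgae nor a Gzmb UMI had 33.8% in Involution, 32.4% in Regression and 32.3% in GF. They had 32.1% in Gestation, 24.1% in Germ-free (HT2), 22.7% in Balb/c and 22.6% in Lactation. Such cells may hold either mRNA undetected, so these values do not separate the states. In Gestation of the second pool, 40.2% of CD8 T cells had such a UMI, and 24.9% at 1000 UMIs per cell.

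The names Lactation, Gestation and Germ-free (HT2) occurred in both libraries, though the HT2 sample of the first pool may be an Involution sample. Lactation against Gestation was the only test run between names, with library as a covariate and 2 samples per stage. Lactation minus Gestation was -0.26 points in CD8 T cells in the first pool and -7.01 points in the second pool, and macrophages -2.39 (11.7% against 14.1%) and -3.76 points (12.8% against 16.6%). B cells gave -0.76 and -0.89 points. CD4 T cells went from 18.5% to 22.0% in the first pool and from 24.6% to 20.7% in the second pool, in opposite directions. No member passed the edgeR test in any of the 6 lineages: 0 of 81 in CD4 T, 82 in CD8 T, 85 in other T, 86 in NK, 82 in B and 85 in macrophages. Over all genes 0.586%, 0.421%, 0.0234%, 0.534%, 0.0334% and 0.0% were called in these lineages. At an unadjusted p under 0.05 (edgeR) the numbers of members were 0, 6, 1, 0, 2 and 2. Over all genes the numbers were 76 of 1707, 166 of 3324, 346 of 8543, 421 of 7495, 172 of 2998 and 403 of 7821. DESeq2 called 0 members in each lineage. The median member log2 fold change was -0.25 in CD8 T cells (median SE 0.21), -0.24 in macrophages (0.18) and 0.04 in NK cells (0.22), so changes of this size could not be told from the spread with 4 samples. Rps27l had the smallest unadjusted p of the members in 3 lineages, B, other T and NK cells, with log2 fold changes of 1.28 (SE 0.39), 0.55 (SE 0.24) and 0.48 (SE 0.25). It was higher in Lactation in both libraries in each, but the edgeR adjusted p was 0.633, 0.998 and 0.921.

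The Balb/c sample had its own pattern inside the family. Members were compared by a fold rule, as each name has 1 sample per library, and no test across genes was run: at least 2-fold from the mean of the other samples of the second pool, in the same direction in all 6 lineages that every sample had. In Balb/c 3 of 83 members met it, all lower (Rpl26, Rpl29 and Rpl35a), against 0.436% of 4584 genes lower and 0.109% higher. Each other name of the second pool had 0 members, against 0.0654% of genes lower in GF, Involution and Lactation, 0.0436% in Gestation and Germ-free (HT2), 0.0218% in Regression and 0.0% higher in any. Among 75 members of 379 genes in the first pool each name had 0, against at most 0.264% of genes in either direction. At 1.5-fold, Rps18 and Rpl21 joined the 3, against 0.567% of genes lower and 0.175% higher.

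Rpl26, a large-subunit protein near the peptide exit, had 1.80 UMIs per 10000 in the gated cells of Balb/c (597 UMIs, exact Poisson interval 1.66 to 1.95, counting error only) and 14.3 to 19.6 in the other 6 samples. Over lineages it was 9.55-fold lower on average, and the Balb/c value was the lowest of 7 in 6 of 6 lineages, from 1.60 in CD4 T and NK cells to 2.16 in B cells. Rpl29, a basic large-subunit protein, had 1.45 (480 UMIs, interval 1.32 to 1.58) against 8.09 to 11.6, or 7.05-fold lower on average. Rpl35a had 12.7 (interval 12.3 to 13.1) against 28.5 to 42.2, or 2.63-fold lower. For each of the 3 genes the Balb/c range over lineages lay below that of every other sample. Rps29, the most abundant member, had 77.4 to 116 UMIs per 10000 over the lineages of Balb/c and 79.6 to 155 in the other samples, so its ranges overlapped.

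**Figure D5:**
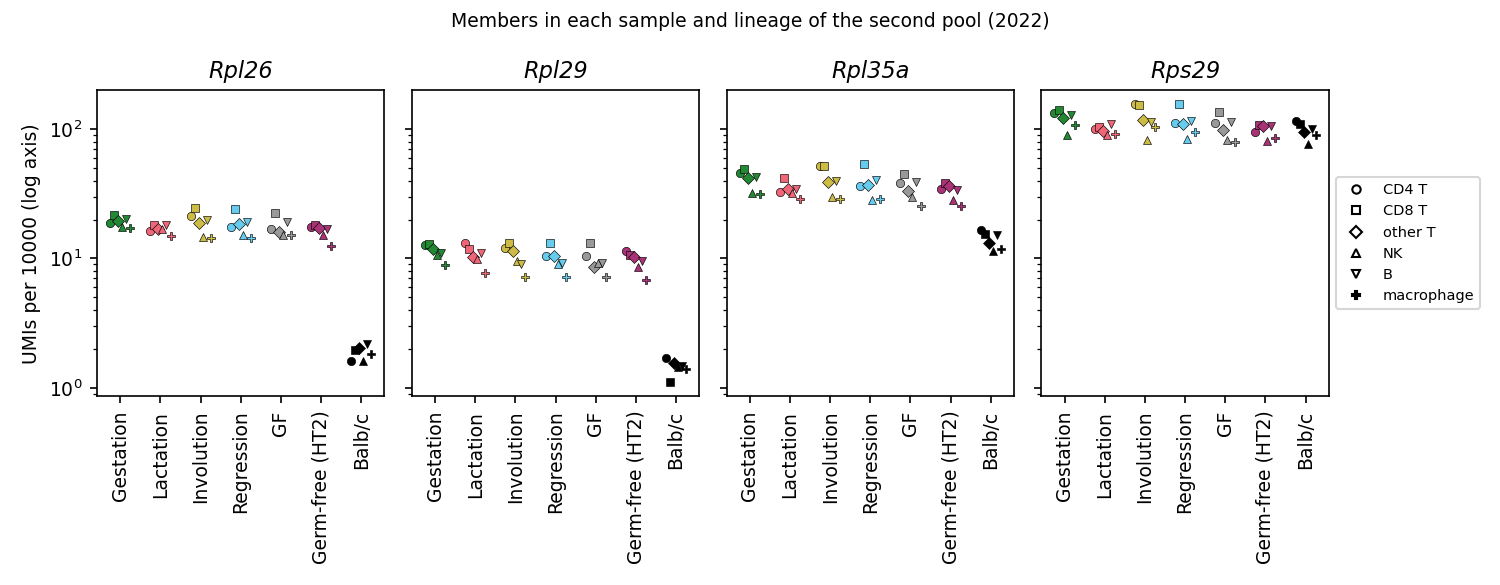
UMIs per 10000 (y axis, log) of Rpl26, Rpl29, Rpl35a and, for comparison, Rps29 in the 7 samples of the second pool (x axis), 1 point per lineage. Balb/c lies at 1.60 to 2.16 for Rpl26, while all other samples lie at 12.6 or more; Rps29 overlaps between samples.

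Some annotated copies of these genes had more UMIs in Balb/c. The matrices hold 320 pseudogenes named for, or listed by RefSeq as a synonym of, 63 of the members. Only 57 of them had at least 20 UMIs in the gated cells of the second pool. Of these, 3 had at least 20 UMIs in Balb/c and a level at least 4-fold above the mean of the other samples of that pool: Gm15772, Rps18-ps6 and Rpl29-ps5. The rule was not applied to other genes or other tag names, so how unusual such copies are was not tested. Gm15772, which RefSeq lists as a transcribed pseudogene with the synonym Rpl26 at chr5:3236390-3236928 (GRCm38.p6), had 2156 UMIs in Balb/c and 5 to 17 in each other sample of the second pool, or 6.50 (Poisson interval 6.23 to 6.78) against 0.0143 to 0.0424 per 10000. In the first pool it had 30 to 128 UMIs per sample. Rpl26 and Gm15772 together came to 8.30 per 10000 in Balb/c and to 14.4 or more in the others, so their sum remained lower in Balb/c (log2 -1.04, against -3.25 for Rpl26 alone). Rps18-ps6 had 602 UMIs in Balb/c and 2 to 14 elsewhere in the second pool, beside an Rps18 level of 13.1 against 18.9 to 32.8, and Rpl29-ps5 had 31 against 0 to 2, too few to alter the level of Rpl29 (1.54 with it). Copies of Rpl35a and Rpl21 did not show this: Rpl35a-ps5 had 10 UMIs in Balb/c (1.47-fold), Rpl35a-ps7 had 0, Rpl21-ps10 had 2 against 0 to 3 in the others, and Rpl21-ps8 had 0 against 6 to 27. Whether the strain's sequence, the assignment of its reads to a reference of another strain or expression sets these values was not tested. Rpl26, Rpl29, Rpl35a, Rps18 and Rpl21 are 5 of the 94 members. Other members were also lowest in Balb/c over the gated cells without meeting the fold rule in every lineage, among them Rps2 and Rpl30. Rps2 had 9.77 UMIs per 10000 against 16.3 to 23.8 in the other samples, and Rpl30 had 17.4 against 19.8 to 34.3. The share of all 94 together was lowest of the second pool in Balb/c in CD8 T cells (19.0% against 22.6% to 33.1%), other T cells (16.6% against 18.05% to 24.0%) and NK cells (14.3% against 16.3% to 19.2%). In B cells (19.5%), CD4 T cells (20.0%) and macrophages (13.9%) it lay within the range of the other samples.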

How the data were processed

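UMI counts per gene and hash tag counts per barcode were used as deposited by the authors, made with Cell Ranger 6.1.0 on mm10 per the submitters' processing notes. The matrix header of the first pool names Cell Ranger 4 instead. The members, lists and tests were chosen with earlier results of these data known. Cells kept had at least 500 UMIs and 300 genes and at most 10% mitochondrial UMIs. HTODemux (Seurat 5.3.0, quantile 0.99) kept singly tagged cells, and Scrublet calls (scanpy 1.11.5, expected rate 0.08) were removed. Gates took at least 1 UMI of a lineage's gene (10 of Jchain), with at least 20 cells per sample. Sums were tested in edgeR 4.0.16 (filterByExpr, TMM, quasi-likelihood, Benjamini-Hochberg), a procedure tested on simulated data. Alternatives were DESeq2 1.42.0 and other gates, scalings, filters, denominators and samples. Named members are the 10 most abundant, paralogs taken in by symbol, and per comparison the 4 called with the largest change each way and the same sign in both libraries. The Balb/c rule, its copies and Rps18, Rpl21 were chosen after seeing the data. The p-values measure only the spread between hash-defined samples, which may be technical, and Poisson intervals (95% level) cover counting error only. One planned split of T cells is not reported here.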

Additional observations from a re-analysis of the deposited data

Results flagged for a closer look

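In other T cells of the second pool, Balb/c stood apart from the other 6 samples by Dixon's criterion in each of the 5 members examined: Rpl26 (2.04 UMIs per 10000), Rpl29 (1.55), Rpl35a (13.2), Rps18 (13.77) and Rpl21 (7.25). These were picked for their low Balb/c level in every lineage, other T cells included, so the choice largely set this outcome. None of the 13 groups of samples per lineage and library had a member share that far from the rest. For those groups, not the picked members, chance flags about 1 in 20.

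The difference in member share between Lactation and Gestation had opposite signs in the 2 libraries in 3 lineages, each with 1 sample per stage and library, and the difference between libraries was not tested. It was 3.53 points in the first pool and -3.87 in the second pool in CD4 T cells, 0.35 and -3.82 in other T cells, and 1.11 and -0.4 in NK cells.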

How the results depend on the processing

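Of 118 values of the share differences between lineages under alternatives, 110 moved by less than 1 SD between samples. Means with 1 sample left out are among the 110 and could not move that far, so they do not measure stability. For CD8 minus CD4 T and B minus CD4 T the SD was near or above the mean difference. A move under 1 SD there can include a lost or reversed difference. The values that moved further were all plasma minus B. In the first pool (main -12.4 points) that was -9.60 with CT010467.1 kept in the denominator, -13.5 without mitochondrial genes, -14.5 at 1000 UMIs, -14.8 over all cells and -1.98 without immunoglobulin genes, and in the second (-15.6) -14.2 as a pooled sum, -14.5 with CT010467.1 kept and -4.01 without immunoglobulin genes. Gates at 2 UMIs left too few CD4 T cells in the first pool for a value. At 1000 UMIs the values against CD4 T cells rest on Nulliparous alone in the first pool. Lactation minus Gestation in CD8 T cells of the first pool (-0.26) was -0.63 with doublet calls kept, -1.26 as a pooled sum, -0.70 at 1000 UMIs and 1.76, the opposite sign, in cells with no Itgae or Gzmb UMI. In the second pool (-7.01) it was -6.44 with CT010467.1 kept, -5.53 with gates at 2 UMIs, -7.22 at 5% mitochondrial UMIs, -4.98 as a pooled sum, -4.95 at 1000 UMIs and -9.43 in cells with no Itgae or Gzmb UMI. The cause was not tested.

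The number of members called in B minus CD4 T (16, against 41.5% of all genes) was 30 with library size only, against 42.8%. It was 4 in the first and 9 in the second pool alone, against 24.6% and 37.4% of all genes. In CD8 minus CD4 T (56, against 9.23% of all genes) it was 34 with library size only, 26 with gates at 2 UMIs and 0 in the first pool alone. The shares of all genes called there were 9.58%, 4.08% and 1.42%. In NK minus CD4 T (58, against 23.3% of all genes) the number was 29 with no filter on low counts, 15 with gates at 2 UMIs and 19 in the first pool alone. The shares of all genes there were 8.61%, 11.3% and 6.97%. In macrophage minus CD4 T (52, against 46.7%) the number was 31, 16 and 12 under the same settings, against 22%, 31.4% and 26.2% of all genes. In plasma minus B (29, against 43.5% of all genes) the number was 83 with library size only and 9 in the second pool alone, against 85.9% and 21.0%. Rpl41 (-0.26) and Rplp0 (-0.50) turned negative there with library size only. Between Lactation and Gestation, B cells had 1 member called with no filter; leaving out single samples, which also required dropping the library covariate, gave 0 to 3 in CD8 T cells (3 without Lactation of the second pool) and 0 to 1 in other T cells (1 without Gestation of the first pool), with the lone sample assumed to vary like the others. With no filter, 29 of 16185 genes were called between Lactation and Gestation in B cells. Where a stage had 1 sample left, the fit had no spread for that stage. Its count of members therefore decides nothing about the family. At 1.5-fold, 5 members were lower in Balb/c, against 0.567% of all genes. Of 295 values of 33 named member results, 257 kept direction and call, 36 lost the call, 14 of them in the first pool alone, and 2 reversed. No paired analysis was possible because replicate numbers of the 4 deposited libraries mark no shared animals; sample was already a block between lineages.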
